A study of Homo sapiens with 24 samples.

Results

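The transcriptome of the platinum-resistant ovarian cancer cell line A2780cis was measured after 12 h in medium with 1 µM 5-FdU-ECyd. The comparison rests on 6 of the 24 whole-transcriptome libraries of the study, chosen by the cell line, agent and time of their labels: 3 libraries of treated A2780cis cells and 3 of A2780cis cells kept for the same 12 h in standard growth medium, for which no vehicle was named. A2780cis is the isogenic partner of the platinum-sensitive line A2780, and both the treated and the untreated A2780cis cells came from a stock that was kept resistant by recurring passages in cisplatin, which A2780 did not receive. The study's remaining libraries were 3 treated and 3 untreated libraries of A2780cis at 6 h and of A2780 at 6 h and 12 h, of which the A2780cis libraries at 6 h and the A2780 libraries at 12 h are set beside the main comparison below. The study speaks of biological triplicates, but no label says whether the cultures were grown separately, so the p-values measure the spread between these libraries, which may be technical. Of 63299 genes listed, 20240 held enough counts in the 24 libraries to be tested.

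5-FdU-ECyd joins 2 nucleoside analogs in 1 molecule. 5-fluoro-2′-deoxyuridine is converted to a nucleotide that inhibits thymidylate synthase, the enzyme that makes the thymidine precursor of DNA, and ethynylcytidine is converted to a nucleotide that inhibits the RNA polymerases. Cells that cannot complete DNA or RNA synthesis stabilize the transcription factor p53, which switches on genes of growth arrest such as CDKN1A and genes of cell death such as BBC3, while transcripts that are made slowly or decay fast are the first to be lost when RNA synthesis is blocked.

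The summed counts were 17628534 to 21366058 in the 3 untreated libraries and 15142949 to 15410865 in the 3 treated libraries, within the range of 11077368 to 21901406 over all 24. Levels are given as CPM, counts scaled to 1000000 per library after TMM scaling, which corrects library size for differences in composition. Such levels are relative to the other genes of a library. A rise or fall below need not be one in RNA per cell, which was not measured. CPM is not divided by gene length, so it is compared between libraries and not between genes. Changes are log2 fold changes (log2 FC, treated against untreated) with a standard error (SE), and a gene was called changed at a Benjamini-Hochberg adjusted p of at most 0.05 in edgeR's quasi-likelihood test. The first principal component of the 6 libraries, which separated treated from untreated, held 82.9% of their variance. The libraries carried few of the epithelial and Müllerian markers common in ovarian carcinoma, since 8 of 12 (PAX8, WT1, MUC16, KRT7, KRT19, ESR1, CDH1 and CLDN3) had at most 3 counts in any of the 6 libraries, while the mesenchymal filament gene VIM was at 2240 CPM or more in untreated cells. ZEB1, CDH2 and FN1, the other mesenchymal markers, were at 48.9 to 62.8, 3.85 to 4.88 and 0.729 to 0.97 CPM in untreated cells. The epithelial keratin genes KRT18 and KRT8 were present, at 25.7 to 26.6 and 3.82 to 6.81 CPM in untreated cells. EPCAM and CLDN4 were at no more than 0.289 and 0.377 CPM there. Of the markers of other cell types, 6 of 7 leukocyte, 4 of 4 endothelial and 4 of 5 erythroid genes were at or below 3 counts in all 6 libraries. Fibroblast markers were different, with only 1 of 7 at or below 3 counts. Among them COL3A1 was at 1880 to 2130 CPM and THY1 at 75.4 to 85.2 CPM in untreated cells. The rest were low, with COL1A1, DCN, LUM and PDGFRB at no more than 1.83, 0.962, 0.431 and 0.647 CPM in untreated cells.

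Treatment changed 12127 of the 20240 genes (59.9%), of which 6270 rose (31.0%) and 5857 fell (28.9%). Of these, 4763 (23.5%) changed at least 2-fold, and at that size increases (2750 genes, 13.6%) were more frequent than decreases (2013 genes, 9.95%). Among protein-coding genes alone the order was the opposite, with 1322 that rose and 1560 that fell at least 2-fold. At least 4-fold changes numbered 966 that rose and 242 that fell, but 33.1% of these 966 genes had at most 3 counts in each untreated library, so that they could enter the test only through other libraries. The levels of the 2 groups did not overlap for 12056 genes (59.6%). The median log2 FC was 0.90 over the genes that rose, -0.79 over those that fell and 0.04 over all genes tested. Scaling by library size alone, in place of TMM, moved that last median to 0.15.

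The largest increases among protein-coding genes with counts in every library were in GDF15, HES2, DRAXIN and CDKN1A. GDF15 encodes a secreted stress cytokine of the TGF-beta superfamily and is a known p53 target. It was at 1.59, 1.68 and 2.00 CPM in untreated and at 45.8, 60.9 and 45.2 CPM in treated cells, a log2 FC of 4.85 (SE 0.20, adjusted p = 6.92e-16). CDKN1A encodes p21, the cyclin-dependent kinase inhibitor through which p53 arrests the cell cycle. Its level went from 12.9, 12.0 and 13.7 CPM to 234, 211 and 229 CPM, a log2 FC of 4.12 (SE 0.12, adjusted p = 6.90e-19). HES2, a transcriptional repressor of the hairy and enhancer of split family, went from between 1.24 and 1.88 CPM to 38.6, 36.1 and 39.2 CPM (log2 FC 4.64, SE 0.15). In each of these genes the lowest treated library was more than 10-fold above the highest untreated one.

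DRAXIN, an axon guidance factor, went from 0.963, 0.618 and 0.648 CPM to 17.6, 18.1 and 17.5 CPM (log2 FC 4.55, SE 0.20). Its exons overlap those of MAD2L2 on the other strand, which averaged 35.8 CPM in untreated and 33.4 CPM in treated cells. FOS, the immediate early gene of the AP-1 transcription factor, was at 1.69, 1.57 and 1.89 CPM without and at 30.0, 30.1 and 26.8 CPM with the drug (log2 FC 4.07, SE 0.16, adjusted p = 1.62e-16). S1PR3, a receptor for sphingosine 1-phosphate, reached 18.9 to 23.2 CPM from at most 1.40 CPM (log2 FC 4.07, SE 0.17). The remaining genes of the 12 largest increases were INKA2 (log2 FC 4.09), MUC20 (3.74), the replication-dependent histone gene H4C14 (3.70), the glutamate receptor gene GRM2 (3.62), ANKRA2 (3.59) and the sodium channel subunit gene SCN4B (3.52). The untreated and treated libraries were separate for all 12, as the rule that chose them required. INKA2 and ANKRA2 share exonic bases on the other strand with DDX20 and UTP15, and MUC20 shares exons on its own strand with the noncoding MUC20-OT1, so the part of these counts that belongs to each partner cannot be told apart here. The same limit holds for ALDH1A3, CCNA2, DFFB, F11R, MAFF, NBN, NDUFC1, NFE2L2, NFKBIZ, NT5C2, SPC24 and TMEM203 below, whose exons overlap those of a gene at 0.5 times their own level or more.

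**Figure D1:**
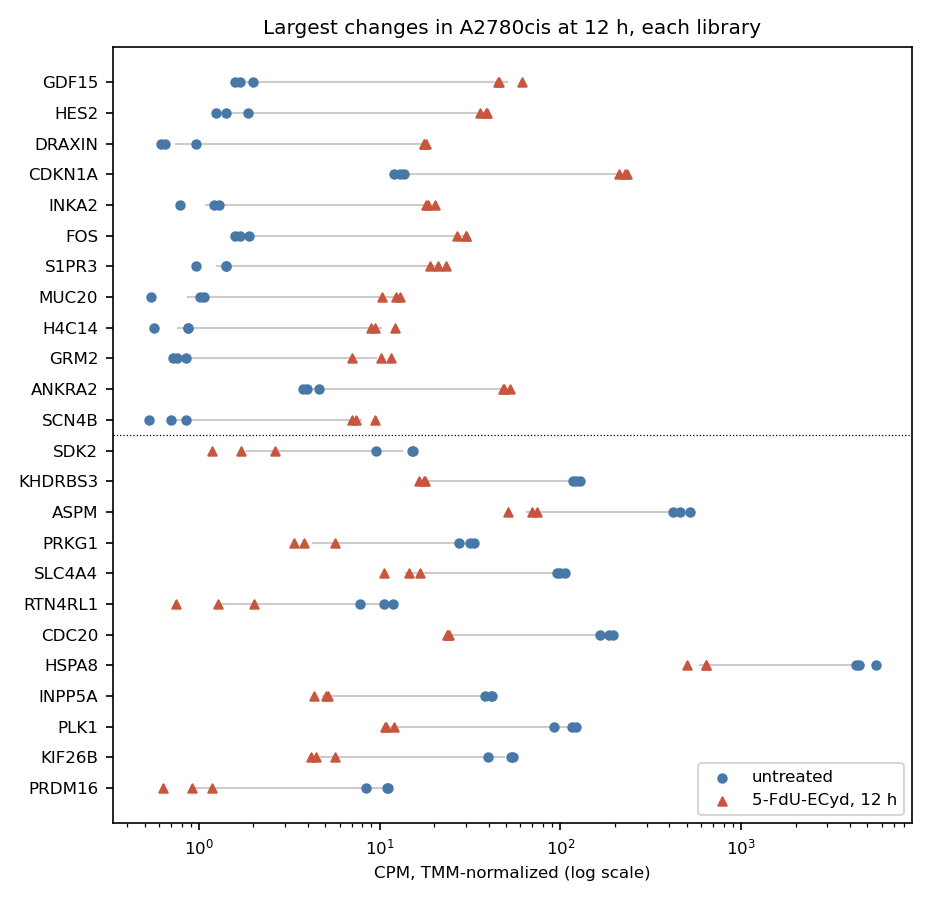
Level of the 12 protein-coding genes with the largest increase (above the dotted line) and the 12 with the largest decrease (below it) in A2780cis at 12 h, in CPM after TMM scaling on a log axis. Each point is 1 of 3 untreated (circles) or 3 treated (triangles) libraries and the grey line joins the group means. GDF15 rose from below 2.01 CPM to at least 45.2 CPM, HSPA8 fell from at least 4301 CPM to at most 641 CPM, and the groups are apart in every row because the rule required it.

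A further 135 protein-coding genes rose from at most 3 counts in each untreated library, so that only a lower bound can be given for their fold change. Genes at that level could enter the test only through other libraries, so their number is shaped by the filter. Of 2389 genes of all classes with fewer than 10 counts in every untreated library 990 rose. BTBD19, a gene of the BTB domain family, was at 0.0482, 0.112 and 0.162 CPM in untreated and at 14.5, 21.2 and 17.7 CPM in treated cells. Set against a floor of 3 counts per library, BTBD19 was at least 113-fold higher. The bounds were 27.8-fold for PDE6G, a phosphodiesterase subunit gene of rod photoreceptors, 20.8-fold for the lipocalin gene LCN10, 19.9-fold for HMCN2 and 18.5-fold for LRRC66. The bound of 16.8-fold for ENSG00000204003 comes from exons that this gene shares with LCN10.

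Single genes of growth arrest and cell death rose beside CDKN1A, whereas the families they belong to went both ways. BTG2, an antiproliferative gene and p53 target, went from 20.6, 20.6 and 23.6 CPM to 213, 194 and 199 CPM (log2 FC 3.23, SE 0.12). PMAIP1, which encodes the pro-apoptotic BCL2-family protein NOXA, went from 8.33, 8.59 and 7.02 CPM to 71.2, 67.5 and 49.99 CPM (log2 FC 2.98, SE 0.15), and BBC3, which encodes PUMA of the same family, had a log2 FC of 2.26. The treated libraries of BTG2 and PMAIP1 lay above all untreated ones. BMF, another pro-apoptotic member, went from 0.225 to 0.540 CPM up to 2.56 to 2.93 CPM (log2 FC 2.63). Of the 21 BCL2-family genes tested, 9 rose (42.9%) and 5 fell (23.8%), beside 31.0% and 28.9% of all genes. The fallers included the pro-survival gene BCL2L1 (log2 FC -0.59).

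Among 12 tested death receptors and ligands 6 rose and 3 fell. TNFRSF10D, a TRAIL receptor that lacks a functional death domain, went from 21, 20.2 and 19.1 CPM to 146, 138 and 144 CPM (log2 FC 2.83, SE 0.10). CASP10, an initiator caspase, had a log2 FC of 1.92, and CFLAR, which blocks initiator caspases at the receptor, one of 0.99. Of 23 caspase and execution genes 5 rose and 8 fell (5 with scaling by library size alone), among them APAF1, the scaffold of the apoptosome, with a log2 FC of 0.92 and the nuclease gene DFFB with -1.56. Of 19 p53 regulators 9 rose and 7 fell, with the RNA-binding p53 target ZMAT3 at 1.87, TRIAP1 at 1.69 and the deubiquitinase gene USP7 at -1.41. Each of these families thus held both rises and falls, as did all genes tested (31.0% and 28.9%).

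MDM2 and FAS, chosen after their values were seen, had smaller log2 FC than CDKN1A. MDM2, the ubiquitin ligase that degrades p53, went from 128, 130 and 119 CPM to 234, 216 and 172 CPM (log2 FC 0.72, SE 0.11). FAS, a death receptor gene and p53 target, rose by 0.61 (SE 0.13) on the log2 scale in A2780cis but by 2.75 in A2780, and this difference passed the test (adjusted p = 9.65e-09).

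Most immediate early genes rose. Of the 43 AP-1 and immediate early genes tested, of 47 listed, 34 rose (79.1%) and 4 fell, beside 31.0% and 28.9% of all genes. Their median log2 FC was 1.28 against 0.04 over all genes. The 43 included 3 with fewer than 10 counts in every untreated library, which could pass the filter only through other libraries. Among the other 40 genes 31 rose and 4 fell. ATF3, a stress-induced factor of the same family as FOS, was at 0.963 to 1.63 CPM in untreated and at 10.3 to 13.4 CPM in treated cells (log2 FC 3.10, SE 0.19). MAFF had a log2 FC of 2.67, while DUSP6, a phosphatase of the ERK kinases, and the zinc finger gene KLF6 fell, with log2 FC of -0.69 and -0.75. The cytokine gene LIF, listed with the NF-kappa-B genes, went from 5.25, 4.04 and 4.70 CPM to 38.7, 48.9 and 48.8 CPM (log2 FC 3.28, SE 0.14). Treated libraries were higher without overlap for FOS, ATF3, MAFF and LIF.

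Most of the 12 largest decreases were in genes of mitosis or in very long genes, with the chaperone gene HSPA8 beside them. PLK1, the kinase that drives entry into and passage through mitosis, was at 91.9, 116 and 121 CPM in untreated and at 10.8, 11.9 and 10.7 CPM in treated cells (log2 FC -3.30, SE 0.16, adjusted p = 9.47e-15). CDC20, the activator of the anaphase-promoting complex, went from 166, 186 and 194 CPM to 24.1, 23.4 and 23.9 CPM (log2 FC -2.93, SE 0.11). ASPM, a protein of the spindle poles, went from 521, 459 and 421 CPM to 69.8, 74.3 and 51.4 CPM (log2 FC -2.84, SE 0.16). In all 3 genes every treated library was far below the lowest untreated one.

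Of the 59 mitosis and G2/M genes listed and tested, 55 fell and 1 rose, with a median log2 FC of -1.37, against 28.9% of all genes that fell. The gene that rose was SPC24, a kinetochore subunit, with a log2 FC of 0.84. BUB1B, a kinase of the spindle checkpoint, was at 221, 192 and 181 CPM before and 37.0, 33.2 and 31.8 CPM after treatment (log2 FC -2.54, SE 0.10), and TPX2, a spindle assembly factor, had a log2 FC of -2.11. BIRC5, which encodes survivin, fell less (log2 FC -0.92). Summed over the list, the level was 8608.2, 8120.1 and 7808.2 CPM in the untreated and 3150.2, 2904.9 and 2969.4 CPM in the treated libraries. The 3 treated sums lay close together and far below the untreated ones. Fewer cells in G2 and mitosis and less RNA per such cell cannot be told apart in these bulk libraries.

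Many genes of this list share short promoter elements that the list did not use, so the bases before the start site are shown for mitotic genes that fell furthest, followed by 2 genes that rose and by HSPA8. The sequences are RefSeq promoters of GRCh38.p14, read 5′ to 3′ on the gene's strand and ending at the base before the annotated start. Capitals mark the CCAAT box and the element TTTGAA on either strand in all of them (ATTGG and TTCAAA are their reverse complements), and beside these the TATA box TATAAA in GDF15 and FOS and the heat shock unit GAANNTTC in HSPA8.
PLK1 (chr16:23678739-23678888, plus strand): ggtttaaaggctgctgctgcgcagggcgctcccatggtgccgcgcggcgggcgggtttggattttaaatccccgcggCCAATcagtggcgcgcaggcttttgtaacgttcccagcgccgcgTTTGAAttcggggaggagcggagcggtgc
CDC20 (chr1:43358831-43358980, plus strand): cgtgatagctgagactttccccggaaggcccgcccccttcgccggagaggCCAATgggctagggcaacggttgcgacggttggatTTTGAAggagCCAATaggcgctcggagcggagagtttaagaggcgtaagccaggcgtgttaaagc
BUB1B (chr15:40160919-40161068, plus strand): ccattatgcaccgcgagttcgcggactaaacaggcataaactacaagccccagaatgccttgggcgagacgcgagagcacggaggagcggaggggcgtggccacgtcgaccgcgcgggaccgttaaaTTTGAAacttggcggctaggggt
ASPM (chr1:197146670-197146819, minus strand): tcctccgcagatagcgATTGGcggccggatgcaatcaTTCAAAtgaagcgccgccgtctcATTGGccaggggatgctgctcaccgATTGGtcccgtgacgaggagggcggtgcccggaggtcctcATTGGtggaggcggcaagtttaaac
GDF15 (chr19:18386008-18386157, plus strand): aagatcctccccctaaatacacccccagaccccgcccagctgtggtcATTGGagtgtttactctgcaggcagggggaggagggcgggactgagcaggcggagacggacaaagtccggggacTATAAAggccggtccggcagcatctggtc
FOS (chr14:75278678-75278827, plus strand): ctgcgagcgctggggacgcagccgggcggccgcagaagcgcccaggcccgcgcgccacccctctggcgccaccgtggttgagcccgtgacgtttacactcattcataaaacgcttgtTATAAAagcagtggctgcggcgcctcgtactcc
HSPA8 (chr11:123062137-123062286, minus strand): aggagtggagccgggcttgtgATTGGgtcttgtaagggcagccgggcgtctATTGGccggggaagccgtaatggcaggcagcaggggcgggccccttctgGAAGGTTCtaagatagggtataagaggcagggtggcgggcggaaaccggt

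In PLK1 the CCAAT box began 73 bases and TTTGAA 29 bases before the start, and in BUB1B TTTGAA began 23 bases before it. GDF15 also held a CCAAT box, on the other strand. Of the 40 mitosis genes with a single promoter in the RefSeq table, 32 (80.0%) held CCAAT and 30 (75.0%) held TTTGAA on either strand within the tabulated window, which runs from 250 bases before to 50 bases after the start, against 37.8% and 9.64% of the 7830 genes, of 13895 protein-coding genes tested, that have a single promoter there. Both elements, with TTTGAA within 50 bases of the start, were in 22 of the 40 (55.0%) and in 114 of the 7830 (1.46%). TTTGAA, added to the motifs after the values were seen, is a form of the cell cycle homology region known from such promoters. Over all genes with a single promoter that rose at least 2-fold, TATAAA was in 9.16% and TGANTCA, the AP-1 site, in 7.04%, against 5.81% and 4.16% of all 7830. In genes that fell at least 2-fold TATAAA was in 4.28% and TGANTCA in 3.18%. The GC box GGGCGG was in 64.5% of the genes that rose and 75.3% of those that fell, against 71.3% of all. The other letters searched on both strands, TGACGTCA, GAANNTTC, TTTGGCGC and TTTCCCGC, were in 3.45%, 4.48%, 1.14% and 2.61% of all. A match of letters is a description of the window and no measure of binding.

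HSPA8, which encodes the constitutive HSC70 chaperone and hosts small nucleolar RNAs in its introns, went from 5550, 4486 and 4301 CPM to 636, 503 and 641 CPM with treatment, a log2 FC of -3.01 (SE 0.13, adjusted p = 1.40e-15). Of the 51 heat shock and chaperone genes tested, of 54 listed, 32 fell (62.7%) and 4 rose (7.84%), beside 28.9% and 31.0% of all genes. The median log2 FC of the list was -0.57, with HSPH1 at -1.57 and DNAJB1 at -1.47. DNAJB1, a co-chaperone, went from 172, 182 and 188 CPM to 68.7, 61.7 and 65.3 CPM without overlap. HSPA2 rose (log2 FC 3.68), but from less than 0.22 CPM. The unit GAANNTTC marked in HSPA8 was in 10 of the 32 chaperone genes with a single promoter (31.2%), against 4.48% of all.

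The long genes among the largest decreases each span more than 200 kb of the genome. KIF26B, a kinesin gene of 554448 bases, was at 39.6, 52.9 and 54.4 CPM in untreated and at 4.19, 5.63 and 4.43 CPM in treated cells (log2 FC -3.36, SE 0.18). PRDM16, a zinc finger regulator gene of 369454 bases, went from 8.43, 11.17 and 11.01 CPM to 0.635, 0.919 and 1.18 CPM (log2 FC -3.47, SE 0.25). INPP5A, SLC4A4, PRKG1 and SDK2, of which PRKG1 spans 1307536 bases, had log2 FC between -3.06 and -2.83. The shorter RTN4RL1 (90658 bases, log2 FC -2.88) and KHDRBS3 (199267 bases, log2 FC -2.83) completed the 12 largest decreases. For each of these genes every treated library was below every untreated one.

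A further 39 protein-coding genes fell to at most 3 counts in each treated library, so that they could enter the test only through other libraries. ADGRL2, an adhesion receptor gene, was at least 9.16-fold lower and PLCB1, a phospholipase gene, at least 6.31-fold lower. KCTD16, EFNA5, MINAR1 and CHRNA10 were at least 4.37-fold, 3.28-fold, 3.14-fold and 3.69-fold lower, and the exons of CHRNA10 overlap those of NUP98, which also fell. PLCB1 went from 1.25, 1.35 and 0.864 CPM to 0.127 CPM in 1 treated library and to no count in the other two.

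The direction of change followed the span of the gene over all 13895 protein-coding genes tested, from the first to the last annotated base. Of 1143 genes under 5 kb, 47.1% rose and 11.9% fell, with a median log2 FC of 0.39. Of 1034 genes over 200 kb, 7.06% rose and 61.7% fell, with a median of -0.83. The medians of the classes between were 0.19 (5 to 20 kb), -0.01 (20 to 50 kb), -0.23 (50 to 100 kb) and -0.50 (100 to 200 kb), so the order held through all 6 classes. With scaling by library size alone the ends were 0.49 and -0.72. The rank correlation of span and log2 FC was -0.38 across genes, which share libraries and are not independent replicates.

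Each treated library showed the same slope. Against the mean of the 3 untreated libraries, the median difference of the genes under 5 kb was 0.25, 0.28 and 0.38 and that of the genes over 200 kb was -0.56, -0.56 and -0.73 in treated libraries 1, 2 and 3. Each untreated library against the other two gave -0.06, -0.04 and 0.09 for the short and 0.01, 0.01 and -0.03 for the long genes. The number of exons went the same way as the span, with a median log2 FC of 0.52 over genes of 1 exon and of -0.54 over genes of 20 or more. In A2780 at 12 h the medians were 0.07 under 5 kb and -0.53 over 200 kb, and in A2780cis at 6 h they were 0.22 and -0.45.

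**Figure D2:**
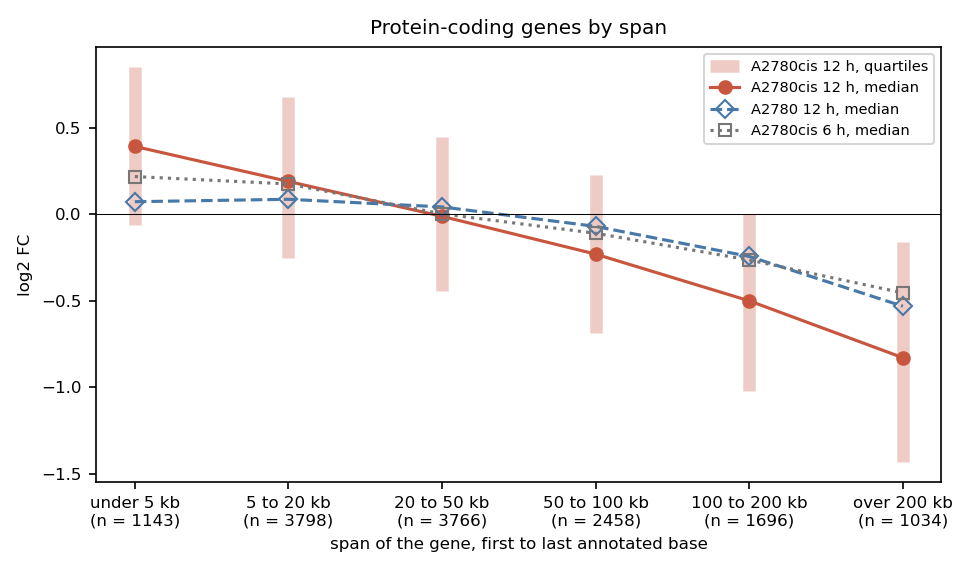
Median log2 FC of protein-coding genes in 6 classes of genomic span, for A2780cis at 12 h (filled circles, with bars from the lower to the upper quartile), A2780 at 12 h (diamonds) and A2780cis at 6 h (squares). The A2780cis medians at 12 h go from 0.39 under 5 kb to -0.83 over 200 kb, and all 3 comparisons slope downward.

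Noncoding classes of RNA had other medians than the mRNAs (-0.05), but the classes were not matched for level. Among protein-coding genes the median log2 FC itself went from 0.44 in the lowest to -0.36 in the highest quintile of mean level. Of 3444 lncRNA genes 37.9% rose and 16.4% fell (median log2 FC 0.32), and NEAT1, the scaffold RNA of nuclear paraspeckles, went from 174, 158 and 168 CPM to 405, 573 and 543 CPM (log2 FC 1.61, SE 0.15). Of 168 snoRNA genes, which lie mostly in introns, 10.1% rose and 42.3% fell (median log2 FC -0.62). Of 25 spliceosomal snRNA genes listed 11 were tested, of which 10 had fewer than 10 counts in every untreated library and so could pass the filter only through libraries where they were higher. Their 11 rises are therefore no result about the list. The share of all counts on snRNA genes was at most 0.00357% in the untreated and 0.0160% to 0.0183% in the treated libraries, and that on rRNA genes was at most 0.00152% in the untreated and 0.0395% to 0.0575% in the treated ones. The snRNA share varied between libraries of 1 group elsewhere, from 0.00388% to 0.0141% in untreated A2780 at 12 h and from 0.00387% to 0.0279% in treated A2780cis at 6 h. The snRNA genes have many near-identical copies, and the part of library preparation in their counts was not tested.

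Genes for making ribosomes and those encoding ribosomal proteins went in opposite directions. Of 78 ribosome biogenesis genes 69 fell (88.5%) and 4 rose (5.13%), beside 28.9% and 31.0% of all genes (median log2 FC -0.82). DDX21, a nucleolar RNA helicase, was at 898, 781 and 715 CPM before and 288, 256 and 221 CPM after treatment (log2 FC -1.65, SE 0.11), and HEATR1, a factor of pre-rRNA transcription and processing, had a log2 FC of -1.53. The 4 that rose, of which 2 were left without treated library 3, included UTP3 (0.72) and NOP10 (0.57). Of the 15 RNA polymerase I subunits and factors 12 fell and 1 rose, with POLR1B at -1.18 and POLR1A, the largest subunit, at -1.25. Of 14 RNA polymerase III subunits 9 fell and 1 rose, whereas of 12 RNA polymerase II subunits 3 fell (1 without untreated library 2 or with scaling by library size alone) and 4 rose.

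Of the 79 cytosolic ribosomal protein genes 64 rose (81.0%) and none fell, beside 31.0% and 28.9% of all genes (median log2 FC 0.50). The sum over the list was 75288.6, 64608.1 and 66203.2 CPM in untreated and 98913.2, 76353.6 and 113650.4 CPM in treated libraries. Treated library 2 was thus just above the highest untreated library and treated library 3 furthest from it. Only 39 of the 79 genes had groups that did not overlap, beside 59.6% of all genes. Without treated library 3 the count of ribosomal protein genes that rose was 33, and without treated library 2 it was 72. Many of these genes have processed pseudogenes of near-identical sequence, so their counts are uncertain to that extent.

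Of 76 nuclear genes of oxidative phosphorylation 52 rose and 2 fell (none without untreated library 3, treated library 1 or treated library 2, or with scaling by library size alone), with a median log2 FC of 0.59, and the sum of their levels followed the same order of libraries, from 8649.6 to 9785.2 CPM in untreated cells to 12913.6, 10164.1 and 14030.4 CPM in treated libraries 1, 2 and 3. NDUFC1, a subunit of complex I, went from 51.6, 49.7 and 51.2 CPM to 84.9, 75.8 and 86.5 CPM (log2 FC 0.70, SE 0.09). All 13 mRNAs of the mitochondrial genome rose, with MT-CO1, a catalytic subunit of cytochrome oxidase, at a log2 FC of 0.79. Over all genes tested 31.0% rose and 28.9% fell. The share of all counts on the mitochondrial chromosome was 5.10% to 5.43% in untreated and 8.79% to 9.94% in treated cells. Neither range reached the other.

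**Figure D3:**
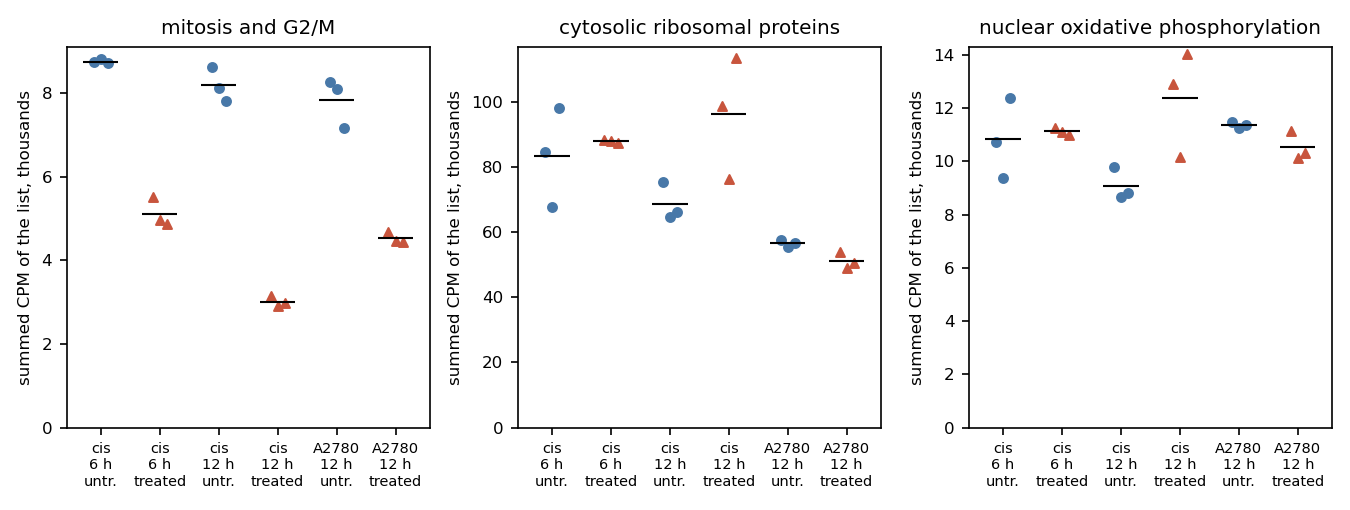
Summed level, with the axis in units of 1000 CPM, of the genes of mitosis and G2/M, cytosolic ribosomal proteins and nuclear oxidative phosphorylation, in each untreated (circles) and treated (triangles) library of A2780cis at 6 h and 12 h and of A2780 at 12 h, with group means as lines. Each axis starts at 0. The mitosis sum fell to between 2904.9 and 3150.2 CPM in treated A2780cis at 12 h, and the 3 treated libraries are spread widely for the ribosomal protein sum, from 76353.6 to 113650.4 CPM.

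Many RNA handling genes fell, beside 28.9% that fell and 31.0% that rose of all genes. Of 59 nuclear pore and transport genes tested 50 fell and 3 rose (median log2 FC -0.82). NUP98, a nucleoporin, was at 244, 252 and 245 CPM without and 64.0, 64.4 and 56.4 CPM with the drug (log2 FC -2.003, SE 0.09), and the importin genes KPNA2 and KPNB1 had log2 FC of -1.89 and -1.87. The mRNA export receptor gene NXF1 was among the 3 that rose (1.08). Of 46 SR and hnRNP genes 33 fell and 4 rose (2 without any 1 of untreated libraries 2 and 3 and treated libraries 1 and 3), and HNRNPDL, which binds AU-rich RNA, went from 443, 427 and 404 CPM to 89.9, 76.4 and 79.8 CPM (log2 FC -2.37, SE 0.10). SRSF3, a splicing factor, had a log2 FC of -1.91. Of 44 decay and deadenylation genes 29 fell and 4 rose (2 without untreated library 2 or treated library 3, and 8 with scaling by library size alone), with CNOT1, the scaffold of the CCR4-NOT deadenylase, at -1.72 and TOB1, which recruits that complex, at 1.70.

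Of 25 genes of elongation control 11 fell (44%) and 6 rose (24%), beside 28.9% and 31.0% of all genes. CDK12, a kinase of the RNA polymerase II tail, went from 118, 132 and 130 CPM to 33.3, 35.6 and 23.9 CPM (log2 FC -2.03, SE 0.13). HEXIM1, which holds the elongation kinase P-TEFb inactive, rose from 57.9, 58.9 and 63.7 CPM to 101, 117 and 109 CPM (log2 FC 0.86, SE 0.08), and the elongation factor gene ELL2 rose with a log2 FC of 1.45. ELL3 had a log2 FC of 1.32, but it shares exonic bases with SERF2 and PDIA3 on the other strand, which were at 15 and 35.3 times its level, and with ENSG00000262560 on its own.

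The targets and activating enzymes of the drug were read in a list of 31 thymidylate and pyrimidine genes. In this list 8 rose (25.8%) and 10 fell (32.3%), near the 31.0% and 28.9% of all genes. TYMS, which encodes thymidylate synthase and was chosen after its values were seen, was at 200.2, 208 and 203 CPM in untreated and at 240.0, 199 and 242 CPM in treated cells, and did not pass the test (log2 FC 0.15, SE 0.09, adjusted p = 0.141). UCK2, a uridine-cytidine kinase of the kind that activates cytidine analogs, went from 179, 194 and 192 CPM to 94.2, 86.1 and 88.4 CPM (log2 FC -1.07, SE 0.08). The nucleotidase gene NT5C2 fell from 618, 575 and 551 CPM to 158, 129 and 130 CPM (log2 FC -2.07, SE 0.09). Of the uptake genes, SLC29A2 fell (log2 FC -1.38) and SLC29A3 rose (0.71), while SLC29A1 had a log2 FC of -0.29 that did not pass the test with scaling by library size alone.

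The subunits of ribonucleotide reductase, which supplies deoxynucleotides, moved differently. RRM2B, the p53-induced small subunit, went from 63.1, 59.5 and 50.1 CPM to 182, 162 and 116 CPM (log2 FC 1.41, SE 0.13). RRM2, the small subunit of S phase, went from 253, 263 and 246 CPM to 196, 159 and 153 CPM (log2 FC -0.58, SE 0.10) in A2780cis whereas its log2 FC in A2780 was 0.65, and the interaction passed the test (adjusted p = 1.64e-06). RRM1, the large subunit, had overlapping groups (log2 FC -0.15, adjusted p = 0.242).

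Of 54 double-strand break and crosslink repair genes 36 fell and 4 rose (median log2 FC -0.44), among them RAD50 at -1.61, NBN at -1.37 and the Fanconi gene FANCC at -1.28. With scaling by library size alone 33 fell and 10 rose. The exons of FANCC overlap those of AOPEP on the other strand, which was at 2.71 times its level and fell from 169 to 62.4 CPM. RAD50, of the complex that binds broken ends, went from 157, 147 and 137 CPM to 49.5, 50.1 and 44.6 CPM. Of 55 origin and fork genes 29 fell and 10 rose, with the replication factor WDHD1 at -1.45, the sliding clamp PCNA at 0.85 and GINS4 at 1.01. Of 45 genes of excision and mismatch repair 21 fell and 12 rose, with the damage sensors DDB2 and XPC at 1.48 and 0.81. Of 31 CDK inhibitors, G1 cyclins and their partners 14 fell and 10 rose, with CCNA2 at -1.32 and E2F7, a repressor of E2F targets, at 1.00. The share that fell was 66.7% of the double-strand break genes, 52.7% of the origin and fork genes and 46.7% of the excision and mismatch repair genes, beside 28.9% of all genes.

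Of 59 replication-dependent histone genes listed 25 were tested, of which 10, H3C6 among them, had fewer than 10 counts in every untreated library and so could pass the filter only through other libraries. Of the 25 genes 17 rose and 1 fell, which is given as a description since the filter favours genes that rise from a low level. H3C6 went from 0.241, 0.281 and 0.270 CPM to 3.81, 2.87 and 3.55 CPM (log2 FC 3.65, SE 0.33), and H4C14 from 0.867, 0.561 and 0.864 CPM to 8.89, 9.36 and 12.1 CPM. The faller was H2AX (log2 FC -0.83), the variant phosphorylated at DNA breaks. Of the remaining genes of this list 2 had no match by symbol and the others did not pass the filter on low counts.

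The following lists are read against the 31.0% of all genes that rose and the 28.9% that fell. Of 36 interferon response genes tested 19 rose (52.8%) and 6 fell (16.7%), with a median log2 FC of 0.52. IFI27, an interferon-induced mitochondrial protein, went from 0.289, 0.393 and 0.216 CPM to 5.33, 5.51 and 6.92 CPM (log2 FC 4.28, SE 0.28), and STAT2 rose (1.40). The 36 genes included 7, IFI27 among them, with fewer than 10 counts in every untreated library. These could pass the filter only through other libraries. Among the other 29 genes 17 rose and 6 fell. Of 33 NF-kappa-B and TNF signaling genes tested 8 rose (24.2%) and 11 fell (33.3%), near those shares, with NFKBIZ at 1.95 and NFKB1 at -1.16. Of 46 lysosome and autophagy genes 23 rose (50%) and 6 fell (median log2 FC 0.29), with DRAM1, a p53-induced lysosomal protein, at 1.03 and GABARAPL1 at 2.01. Of 29 ATF4 targets 10 rose (34.5%) and 7 fell (24.1%), also near them, among them DDIT4 at 1.79, SESN2 at 1.45 and the amino acid transporter gene SLC7A5 at -1.45.

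Of 17 platinum and drug transporters tested 6 rose (35.3%) and 5 fell (29.4%), shares near the 31.0% and 28.9% of all genes. ABCC2, an export pump that has been linked to platinum, went from 1.3, 1.80 and 1.62 CPM to 4.95, 5.00 and 3.99 CPM (log2 FC 1.57, SE 0.21), while the pump genes ABCC1 and ABCC4 fell (log2 FC -1.13 and -1.49). SLC31A1, the copper transporter CTR1, had a log2 FC of -0.52. Of 31 conjugation and aldehyde enzymes tested, of 53 listed, 21 rose (67.7%) and 1 fell (median log2 FC 0.52), with ALDH1A3 at 1.01 and GSTM1 at 0.91. These included 5 with fewer than 10 counts in every untreated library, and among the other 26 enzymes 20 rose and 1 fell. Of 28 NRF2 and glutathione genes 9 rose (32.1%) and 6 fell (21.4%), with GPX1 at 1.47 and NFE2L2, which encodes NRF2, at -0.51. Of 24 epithelial and mesenchymal genes tested, of 31 listed, 6 rose and 7 fell (median log2 FC 0.02), so the list as a whole leaned to neither side. Among its mesenchymal genes VIM (log2 FC -1.48) and ZEB1 (-1.67) fell, and SNAI1 rose (1.08) from at most 3.78 CPM.

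**Figure D4:**
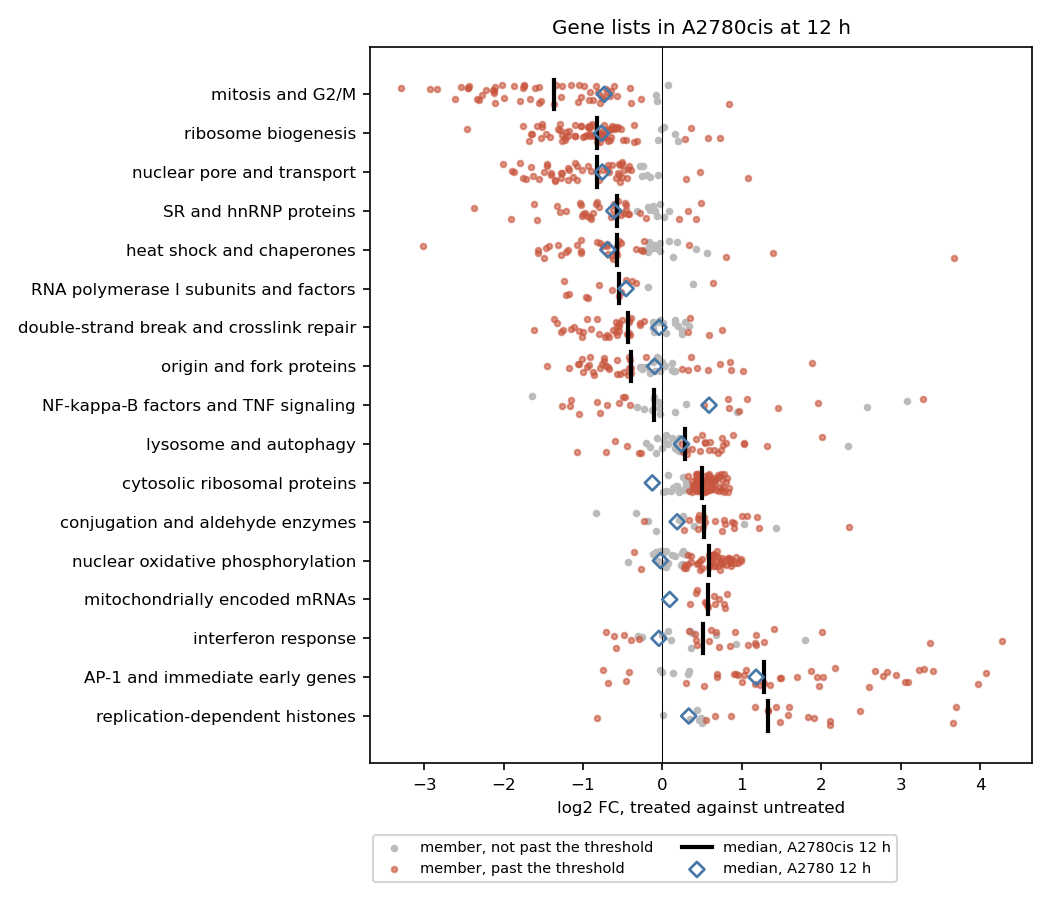
Log2 FC in A2780cis at 12 h of the tested members of 17 gene lists, with 1 point per gene, coloured where the adjusted p was at most 0.05 and grey where it was not. The black bar is the list's median and the open diamond the median of the same genes in A2780 at 12 h. The mitosis list lies furthest to the left (median -1.37), and the cytosolic ribosomal protein and oxidative phosphorylation lists have medians of 0.50 and 0.59 in A2780cis beside -0.13 and -0.03 in A2780.

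The change in A2780cis was set against that in A2780 by the interaction of line and treatment at 12 h, in which each line has its own controls. In A2780 11087 genes changed (54.8%), and the interaction passed the test for 4790 genes (23.7%), of which 1964 were higher in A2780cis (9.7%) and 2826 lower (14%). The share that was higher, 41.0%, depended on the fit. With scaling by library size alone it was 27.0% of 5343 genes. With only the compared libraries fitted, 2175 genes were higher and 2152 lower (50.3% higher), so the lean to lower differences was absent there. Of the 4790 genes, 1438 rose in A2780cis with a higher log2 FC than in A2780, and 1860 fell with a lower one. A further 360 rose and 116 fell less far than in A2780, and 1016 were not called in A2780cis. Opposite calls were rare, with 136 of the 1438 genes that rose in A2780cis and fell in A2780, and 207 of the 1860 the other way.

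Of the 59 mitosis genes 47 differed between the lines, all lower in A2780cis, and the median of the list was -1.37 in A2780cis and -0.73 in A2780. The summed level of the treated libraries was 2904.9 to 3150.2 CPM in A2780cis and 4426.8 to 4673.5 CPM in A2780. Of the 79 ribosomal protein genes 60 differed, all higher in A2780cis, where the median was 0.50 against -0.13 in A2780. That count rests on single libraries. It was 14 without A2780cis treated library 3, 24 and 36 without A2780cis untreated libraries 2 and 3, 37 without A2780cis treated library 1, 36 and 38 without A2780 untreated libraries 1 and 3, 38 without A2780 treated library 2 and 76 without A2780cis treated library 2. Of 76 oxidative phosphorylation genes 47 differed, all higher, and this count was 25 and 29 without A2780cis treated libraries 3 and 1 and 29 and 31 without A2780cis untreated libraries 2 and 3. Of 33 NF-kappa-B and TNF genes 20 differed, 18 of them lower in A2780cis, as for BIRC3, an inhibitor of apoptosis, with log2 FC of 0.96 in A2780cis and 3.06 in A2780. Double-strand break genes differed for 24 of 54, with 23 lower, and interferon genes for 13 of 36, with 12 higher.

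Among the single genes with the smallest p for this interaction, TAP1, the transporter of peptides for antigen presentation, went from 7.85, 8.76 and 8.21 CPM to 50.5, 53 and 59.9 CPM in A2780cis (log2 FC 2.72). In A2780 it was at 209, 206 and 236 CPM already without the drug and at 266, 273 and 267 CPM with it (log2 FC 0.31), a difference of 2.41 (SE 0.14). ADM, which encodes the vasoactive peptide adrenomedullin, had the same form, from at most 2.47 CPM to 12.4, 16.9 and 16.7 CPM in A2780cis and from 10.5 to 11.3 CPM up to 12.4 to 13.1 CPM in A2780 (difference 2.74, SE 0.22). Both genes rose in A2780cis from a level far below that of untreated A2780. INHBE, TRIB1 and the glucose transporter gene SLC2A3 rose in A2780cis (log2 FC 0.78, 0.90 and 0.97) and fell in A2780 (-1.48, -1.08 and -0.40).

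In the other direction, SMAD3, a mediator of TGF-beta signals, fell from 15.4, 18.8 and 19.1 CPM to 11.7, 14.1 and 12.6 CPM in A2780cis (log2 FC -0.47) and rose from 16.2, 16.5 and 18.9 CPM to 66.3, 67.0 and 62.2 CPM in A2780 (log2 FC 1.92), a difference of -2.39 (SE 0.16). Its untreated levels overlapped between the lines. MOCOS, a molybdenum cofactor enzyme, was at 41.6, 38.8 and 41.4 CPM in untreated and 43.1, 37.3 and 38.6 CPM in treated A2780cis, with overlapping groups, and rose in A2780 from at most 1.13 CPM to at least 6.24 CPM (log2 FC 2.86). ZNF600 and the junction protein gene F11R had log2 FC of 0.49 and 0.54 in A2780cis and of 2.59 and 2.51 in A2780. ABHD15 fell in A2780cis (-1.18) and rose in A2780 (0.42), but its exons overlap those of TP53I13 on the other strand. CDKN1A reached lower levels in treated A2780cis than in treated A2780 (322, 332 and 338 CPM), though its change was larger by 1.24 (SE 0.15, adjusted p = 1.80e-06), since untreated A2780 was already at 43.1, 44.9 and 45.8 CPM.

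**Figure D5:**
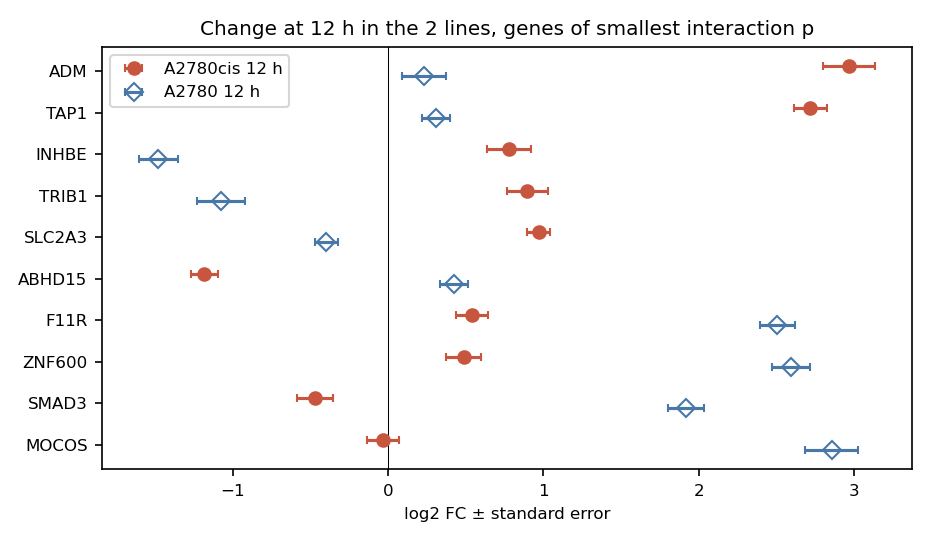
Log2 FC at 12 h, with bars of 1 SE, in A2780cis (filled circles) and A2780 (diamonds) for the 10 protein-coding genes with the smallest p of the interaction, 5 in each direction. TAP1 and ADM have log2 FC above 2.7 in A2780cis and below 0.4 in A2780, and SMAD3 and MOCOS have log2 FC of 1.92 and 2.86 in A2780 and of -0.47 and -0.03 in A2780cis.

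The change at 12 h was also set against that at 6 h in A2780cis, where each time had its own untreated libraries. At 6 h 6212 genes were called (30.7%), and the interaction of time and treatment passed the test for 4852 genes (24%). Most of these rose at 12 h with a higher log2 FC than at 6 h (1964) or fell with a lower one (2503). The change was smaller for 5 that rose and 26 that fell, and 354 were not called at 12 h. Opposite calls at 6 h were held by 44 of the 1964 and 43 of the 2503. The median of the absolute log2 FC over all genes was 0.32 at 6 h and 0.56 at 12 h.

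HSPA8 was at 4186, 3584 and 3504 CPM in treated cells at 6 h, a log2 FC of -0.97, and fell by a further 2.04 (SE 0.17) on the log2 scale by 12 h. Its untreated level was also lower at 12 h than at 6 h, by 0.62 on the log2 scale. CDC20, HNRNPDL, JMJD6 and GEMIN5 had log2 FC of -1.18, -0.65, -0.48 and -0.52 at 6 h and of -2.93, -2.37, -2.03 and -1.81 at 12 h. TP53I3, an oxidoreductase gene induced by p53, went from 69.7, 77.5 and 80.6 CPM in treated cells at 6 h to 234, 234 and 305 CPM at 12 h, with untreated cells at 33.1 to 39.8 CPM at both times. FAM228B, which is antisense to TP53I3, and TLCD1, whose exons overlap RPL23A, grew beside them, by 2.03 and 1.64 on the log2 scale. RAP2B grew by 1.41. TMEM203 went the other way in time, with a log2 FC of -1.58 at 6 h and of -0.21 (SE 0.10, adjusted p = 0.0575) at 12 h.

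By list, the change differed between 6 h and 12 h for 50 of 78 ribosome biogenesis, 42 of 59 nuclear pore and transport and 39 of 59 mitosis genes. It was lower at 12 h for 48, 41 and 38 of them. The medians at 6 h were -0.30, -0.33 and -0.76, beside -0.82, -0.82 and -1.37 at 12 h. The mitosis sum in treated cells was 4854.1 to 5517.0 CPM at 6 h and 2904.9 to 3150.2 CPM at 12 h, without overlap. AP-1 and immediate early genes had a median of 0.80 at 6 h, where 28 of 43 had risen, and ATF3 went from a log2 FC of 0.52 at 6 h to 3.10 at 12 h. Ribosomal protein genes had a median of 0.06 at 6 h, and 24 of 79 were higher at 12 h.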

How the data were processed

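Total RNA was sequenced from libraries of a stranded total RNA kit, as single reads by the labels but as read pairs by the study's methods, a conflict that the counts do not settle. Per the labels, the authors demultiplexed with bcl2fastq, trimmed with Trimmomatic, aligned to GRCh38.p7 with STAR 2.5.2b and counted with featureCounts. By the study's methods reads that mapped to several places or overlapped several genes were counted in fractions. The strand setting of the counting is not given in the sources used here. The table the authors deposited holds 1 estimated count per gene and library, not normalized and in part fractional. Counts were rounded. Gene names came from GENCODE 44 by Ensembl ID (56993 of 63299 matched). Genes were kept by filterByExpr (minimum count 10, minimum total 15) and scaled by TMM, and edgeR 4.0.16 in R 4.3.3 fitted its quasi-likelihood test over all 24 libraries with 1 coefficient per group. SE is the absolute log2 FC over the square root of F. The steps were tested on simulated data. Named genes were the largest changes of protein-coding genes with counts in all libraries, those at the floor of 3 counts in 1 group, up to 3 members of each list in each direction by p, and the 5 genes of smallest p in each direction of each interaction. MDM2, FAS and TYMS were added after their values were seen. Some genes that these rules named are not reported here. The gene lists and comparisons were chosen with earlier results of these data known. Intervals cover the spread between libraries only. Alternatives were other scalings, no filter, counts not rounded, DESeq2, a block for the replicate number, the compared libraries alone, removal of lncRNA and rRNA genes, and each library left out.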

Additional observations from a re-analysis of the deposited data

Results flagged for a closer look

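The results below differed between the lines or between the times by a test of the difference itself, the interaction in edgeR's quasi-likelihood fit at an adjusted p of at most 0.05. The 12 h change differed between A2780cis and A2780 for 4790 genes, and the A2780cis change differed between 12 h and 6 h for 4852 genes. Between the lines 47 mitosis genes, 60 cytosolic ribosomal protein genes, 47 nuclear oxidative phosphorylation genes, 9 mitochondrially encoded mRNAs and 20 NF-kappa-B and TNF genes differed. Between the times 50 ribosome biogenesis genes, 42 nuclear pore and transport genes and 39 mitosis genes differed.

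Among the largest increases, the log2 FC at 12 h was higher in A2780cis than in A2780 by 0.81 for GDF15, 1.24 for CDKN1A, 1.38 for FOS, 1.25 for S1PR3, 1.97 for H4C14 and 0.67 for ANKRA2. It was lower in A2780cis for HES2 (-1.55), DRAXIN (-2.14) and INKA2 (-0.73). Among the largest decreases the difference was -0.74 for PLK1, -1.02 for INPP5A, -1.08 for CDC20 and -1.31 for ASPM. It was -3.62 for PRDM16 and -3.02 for KHDRBS3, which had at most 0.244 and 0.391 CPM in any A2780 library at 12 h, so that these 2 differences rest on a few counts in A2780.

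Of the genes with the smallest p, the difference between the lines was 2.74 for ADM, 2.41 for TAP1, 2.26 for INHBE, 1.97 for TRIB1 and 1.37 for SLC2A3. It was -2.89 for MOCOS, -2.39 for SMAD3, -2.11 for ZNF600, -1.96 for F11R and -1.60 for ABHD15. The difference between 12 h and 6 h in A2780cis was 2.03 for FAM228B, 1.70 for TP53I3, 1.64 for TLCD1, 1.41 for RAP2B and 1.37 for TMEM203. It was -2.04 for HSPA8, -1.75 for CDC20, -1.72 for HNRNPDL, -1.55 for JMJD6 and -1.29 for GEMIN5.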

How the results depend on the processing

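The 4 counts of changed genes stayed within 1.5 times their value under all 68 alternatives. Leaving out 1 library at a time gave 11210 to 11777 changed genes, 4628 to 5099 changed at least 2-fold, 3665 to 5413 that differed between the lines and 3655 to 5478 that differed between the times. DESeq2's Wald test called 11635 changed genes, scaling by library size alone 12271, no filter 12926 and the 6 libraries alone 10684. Scaling by library size alone moved the share of rises among changed genes from 51.7% to 58.8%. Without a filter 30.3% of 4977 time differences were higher at 12 h, in place of 43.1%. The deviations of same-numbered A2780cis libraries at 12 h from their group means had correlations of 0.312, 0.0489 and 0.0167. Between libraries of different number the correlations ran from -0.326 to 0.275. These values, from 3 libraries per group, cannot decide whether the numbers pair the samples. With the replicate number as a block the 4 counts were 12298, 4768, 5129 and 5109.

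Of 3978 recomputed changes of 285 named genes, 3910 kept direction and call, 62 in 15 genes kept direction but lost the call and 3, all of TMEM203, gained it. The 3 that turned direction were all of MOCOS, which was not called: 0.072 with library size alone, 0.028 with lncRNA and rRNA genes removed and, over the libraries left out, -0.13 to 0.0079, the last without A2780cis treated library 2. All 400 recomputed interactions of the 20 genes of smallest p kept direction and call. Of 628 recomputed list medians 103, in 31 lists, moved by more than the spread between replicates, and 31, in 11 lists, changed sign, all of lists with medians near 0. The cause was not tested. Genes at or below 3 counts per library have no measurable fold at this depth.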

Other observations

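At 12 h, zinc finger genes of chromosome 19 stood apart from the other genes of that chromosome. Of 226 tested genes of this chromosome with ZNF, ZFP or ZSCAN names, which mostly encode transcriptional repressors, 54.9% rose and 7.52% fell in A2780cis at 12 h, with a median log2 FC of 0.44, against 33.4% and 23.4% of the 879 other protein-coding genes of chromosome 19 and a median of 0.11. In A2780 at 12 h the median of the same 226 genes was 0.60, beside -0.02 for the other 879. In A2780cis at 6 h the order was the reverse, with medians of 0.18 for the zinc finger genes and 0.38 for the others. The groups were not matched for level or span, and both went with log2 FC over all protein-coding genes. Chromosome 13 had the lowest median of the autosomes (-0.28 over 213 genes, with 12.2% that rose and 46.0% that fell).

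Among metabolic genes, read beside 31.0% of all genes that rose and 28.9% that fell, HK2 and SLC2A1 of glucose entry fell. The glucose transporter gene SLC2A3, described above, rose. HK2, which phosphorylates glucose, went from 79.2, 94.5 and 93.0 CPM to 22.7, 23.2 and 20.9 CPM (log2 FC -1.996, SE 0.11), and the glucose transporter gene SLC2A1 had a log2 FC of -1.44, while of the 26 glycolysis genes 9 fell and 5 rose (8 without untreated library 1 or treated library 2, and 9 with scaling by library size alone). The log2 FC of these 26 genes ran from -1.996 to 2.89. Of 27 tested genes of cholesterol synthesis and uptake 13 fell and 6 rose (3 without treated library 1), with SQLE, a squalene oxidizing enzyme, at -1.29 and TM7SF2, whose exons overlap VPS51, at 1.35. Of 40 proteasome genes 12 rose and 12 fell, with PSMD14 at -1.65, and the count that rose was 5 without treated library 3 and 18 without treated library 2. Of 61 genes of protein processing in the endoplasmic reticulum 28 fell and 11 rose (6 without treated library 3), with the coat protein gene SEC24D at -1.65.

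The next lists stand beside 31.0% of all genes that rose and 28.9% that fell, and most of their shares were near these. Of 23 tested Notch and BMP genes 10 fell (43.5%) and 5 rose (21.7%). ID3, an inhibitor of basic helix-loop-helix factors, went from 257, 311 and 337 CPM to 95.0, 107 and 112 CPM (log2 FC -1.53, SE 0.15), and NOTCH2 had a log2 FC of -1.38. Of 36 matrix and integrin genes 11 fell (30.6%) and 10 rose (27.8%), with the integrin genes ITGA6 at -1.34 and ITGA3 at 1.64. Of 12 MYC network genes 5 rose (41.7%) and 4 fell (33.3%), with MYC at -0.55, MGA at -1.88 and the MYC antagonist MXD1, whose exons overlap SNRNP27, at 1.39. Of 25 snoRNA host genes 9 fell (36.0%) and 6 rose (24%, or 10 genes with scaling by library size alone), with SNHG7 at -1.78 and DANCR at 0.84. Of 18 cytochrome P450 genes tested, of 42 listed, 6 rose (33.3%) and 4 fell (22.2%), with CYP2S1 at 1.22 and CYP26B1 at -1.24. Of 16 abundant nuclear and structural RNAs 11 rose and none fell. The 16 included 5 with fewer than 10 counts in every untreated library, which could pass the filter only through other libraries. Among the other 11 RNAs 9 rose and none fell. Some of these RNAs also varied widely within a group, as RN7SK, the RNA that scaffolds inactive P-TEFb, with 1.19, 18.5 and 12.8 CPM in untreated A2780 at 12 h and 33.6, 68.9 and 1.84 CPM in treated A2780cis at 6 h, beside 0.618 to 1.16 CPM in untreated and 23.0 to 26.6 CPM in treated A2780cis at 12 h.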
